A study of Danio rerio with 36 samples.

Results

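The genes described here encode the enzymes that split glucose into pyruvate, the enzymes that rebuild glucose from smaller molecules, the lactate and pyruvate steps next to them, sugar and lactate transporters, and the hypoxia-linked genes bnip3 and ankrd37. The list named 46 zebrafish genes, and 41 of them were found among the 14781 gene symbols counted in every RNA library. The other five, pfkla, pfkpa, pfkpb, pdk2a and slc2a1b, were not analysed here. Of the 41, 13 belong to the upper steps, called hexose steps or hexose genes here. These are hexokinases, glucose phosphate isomerases, phosphofructokinases, aldolases and triose phosphate isomerases. The last of them, tpi1a and tpi1b, act on trioses although they were counted in this group. The triose steps hold 12 genes, from glyceraldehyde phosphate dehydrogenase to pyruvate kinase. Another 2 are lactate dehydrogenases, 3 belong to or regulate pyruvate dehydrogenase, 6 act in gluconeogenesis, 3 are transporters and 2 are the hypoxia-linked genes. The genes counted as slc16a1 and slc16a3 carry the current symbols slc16a1b and slc16a3b.

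Glycolysis yields ATP without oxygen and feeds side branches that build nucleotides and amino acids. Pyruvate either enters the mitochondrion through pyruvate dehydrogenase or is reduced to lactate, which monocarboxylate transporters carry across the cell membrane. Gluconeogenesis runs most of the same steps backwards, and its own enzymes, phosphoenolpyruvate carboxykinase, fructose bisphosphatase and glucose 6-phosphatase, bypass the steps that cannot be reversed. Zebrafish carry paralogs of many of these enzymes, so that one step can be served by several genes.

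The caudal fin of the zebrafish regrows after amputation, and the libraries sampled it at set days post amputation (dpa). In batch 3, fins at 2 dpa were sampled once with a deletion of LEN and once with no deletion named, against 1 uninjured (0 dpa) fin library of each kind. LEN is known from earlier work as an enhancer linked to the leptin gene lepb. In batch 1, wild-type whole fins at 4 dpa (n = 2) stood against whole fins at 0 dpa (n = 2). Batch 3 also held fibroblasts at 4 dpa (n = 2) and 0 dpa (n = 2), labelled wild type. Batch 2 held whole fins labelled 1 dpa (n = 3) and labelled 0 dpa (n = 3), also wild type. Fish were of the outbred Ekkwill strain, and per the labels' protocols each fin pool came from 15 fish aged 3 to 12 months; a second protocol gives 4 to 12 months, and the collection text names 0, 1 and 4 dpa but not 2 dpa. Each fibroblast pool came from 75 fish, and the promoter of tph1b, known to be used by fibroblasts of the fin, drove their transgene. Those fins had been clipped earlier, treated with 4 µM tamoxifen for 12 h from 2 dpa and left to regrow for 2 months, so the fibroblast 0 dpa group had been amputated and had regrown before. The growth and treatment protocols name different transgenes in these fish, a nitroreductase line and a creER line, and the cell sort is described for the accessibility samples only.

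Libraries held 19427984 to 43871436 gene counts, of which the 41 genes together took 0.311 to 0.578%. Replicates differed by more than sampling noise, and in groups with replicates p-values measure the spread between these pools of fish. In batch 2 the deposited file naming exchanges the groups that the labels give. Grouping here keeps to the labels, and batch 2 libraries are therefore written as labelled 1 dpa or labelled 0 dpa. The injury gene lepb had 0 to 0.0309 CPM in the libraries labelled 1 dpa, against 31.3 to 44.4 CPM in those labelled 0 dpa. In batch 1 it had 27.0 and 37.9 CPM at 4 dpa, against 0.182 and 0.424 CPM at 0 dpa, so batch 2 goes against its labels. At 2 dpa lepb stood at 0.245 CPM in the LEN deletion fin, against 110.7 CPM in the fin with no deletion named. CPM are counts scaled to a common library size, with TMM factors (trimmed mean of M values) of all 18 libraries. In whole fins, fewer cells of a type and less RNA per cell cannot be told apart.

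At 2 dpa, fins had no counts of the gluconeogenesis gene pck1 and less fbp1a, while ldha, both lactate transporter genes and 7 of 12 tested triose genes were higher. Of 36 tested genes of the list 15 were higher and 8 lower than in uninjured fins by edgeR's quasi-likelihood test (adjusted p under 0.05), 23 in all. Over all genes tested, 31.2% were called higher and 31.1% lower, 62.3% in all. DESeq2's test called 9 of the 36 higher and 6 lower, against 23.6% and 24.5% of all genes (48% in all), so that the share of higher calls in the list was then near that of all genes. Its median log2 fold change was 0.27, against 0.00 over all genes, and stayed 0.27 with pck1 set at its bound. The fit had 1 library per genotype and time, with genotype as a block, which leaves 1 residual degree of freedom among samples. That residual is the difference between the genotypes in the change from 0 to 2 dpa. The p-values at 2 dpa therefore do not measure a spread between replicate pools.

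**Figure D1:**
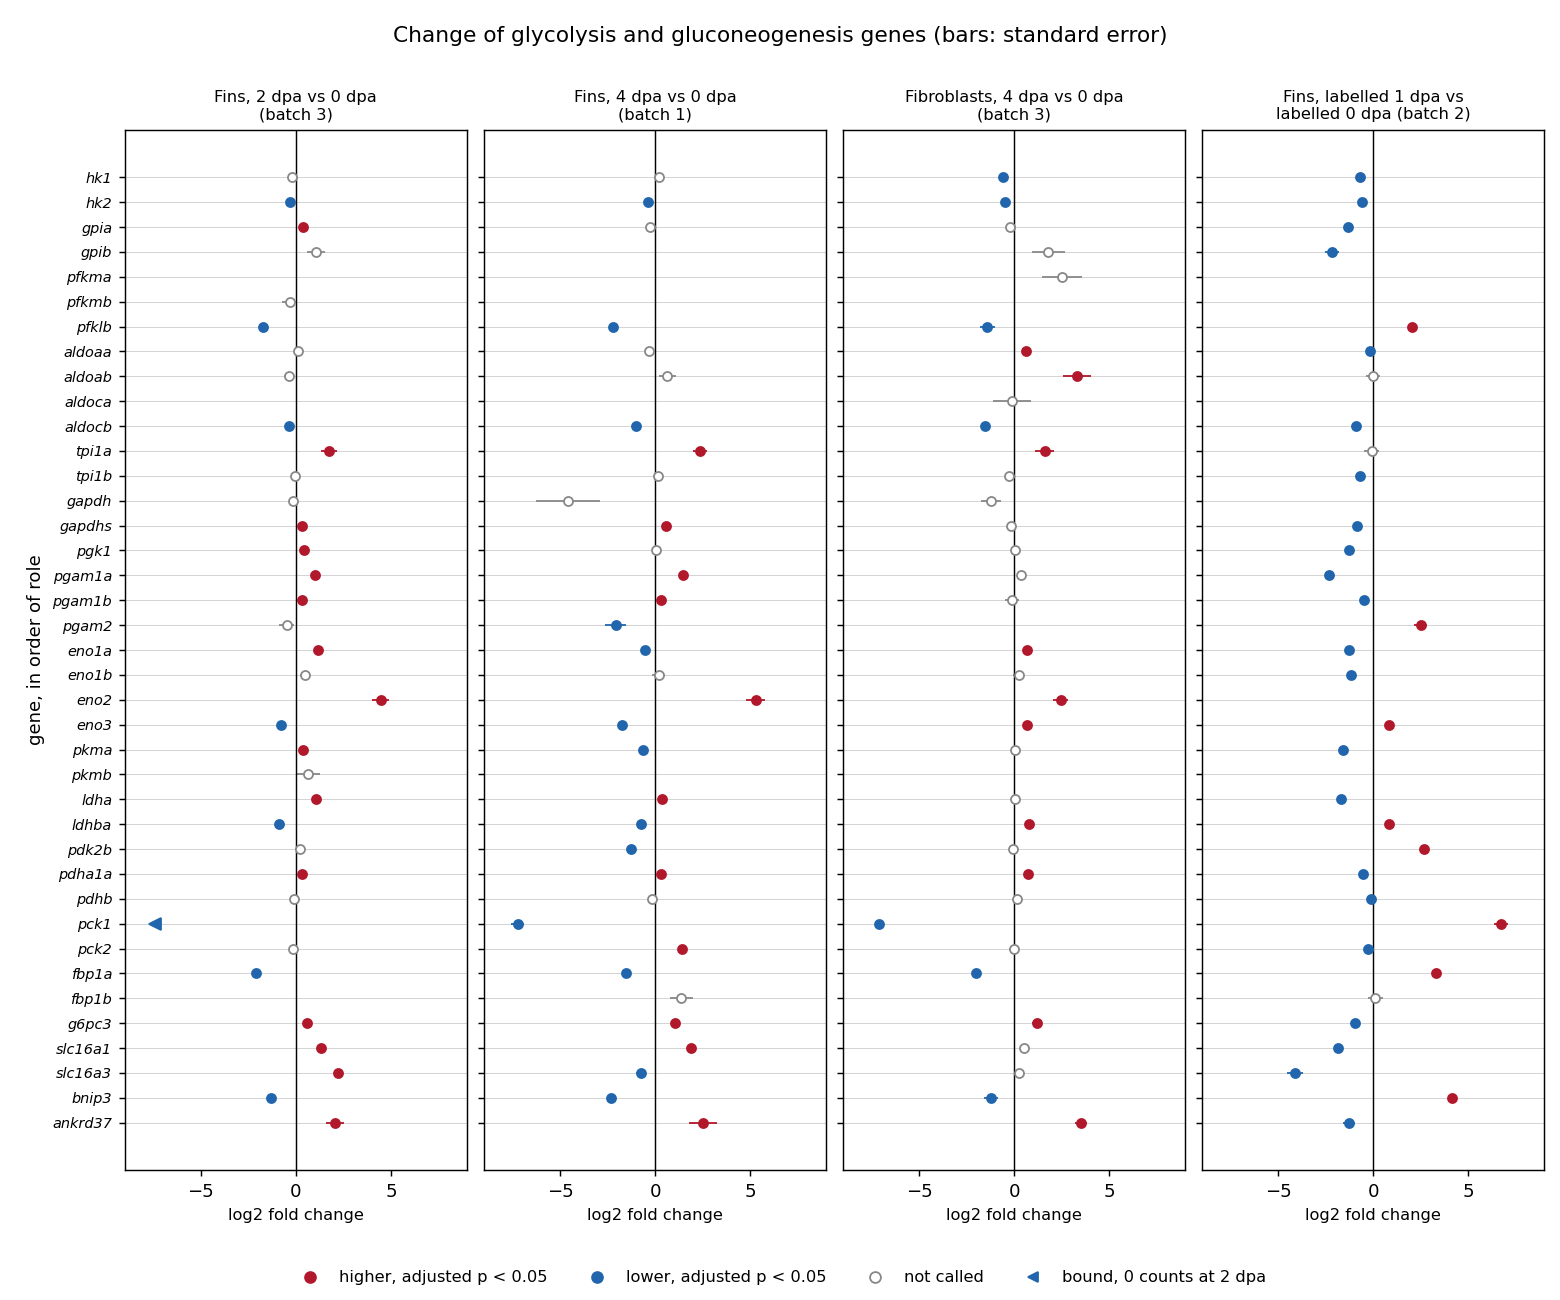
Log2 fold change (x axis, bars are standard errors) of each tested gene (y axis, in order of role) in 4 comparisons, each with its own uninjured or labelled 0 dpa fins or fibroblasts. Red points were higher and blue points lower at an adjusted p under 0.05, and open points were not called. The gene pck1 lies furthest left in the panels of fins at 2 dpa, fins at 4 dpa and fibroblasts, and furthest right in the batch 2 panel.

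Cytosolic phosphoenolpyruvate carboxykinase, the product of pck1, makes phosphoenolpyruvate from oxaloacetate and commits carbon to glucose. Its gene had 0 counts in both fins at 2 dpa, against 332 counts (11.6 CPM) in the uninjured fin with no deletion named and 132 counts (4.14 CPM) in the uninjured LEN deletion fin. With a floor of 3 counts over the 2 dpa libraries, pck1 was at least 169-fold lower (edgeR adjusted p = 3.22e-07). Fructose 1,6-bisphosphatase, the product of fbp1a, undoes the phosphofructokinase step. The gene had 23.7 CPM (no deletion named) and 24.4 CPM (LEN deletion) at 2 dpa, against 105.5 and 101.1 CPM at 0 dpa (edgeR log2 fold change -2.12, SE 0.10, adjusted p = 5.75e-08). The mitochondrial carboxykinase gene pck2 kept to 47.5 to 50.8 CPM at 2 dpa, against 51.4 to 57.4 CPM at 0 dpa, and was not called (edgeR log2 fold change -0.16, SE 0.10, adjusted p = 0.177). The gene of the widely expressed glucose 6-phosphatase subunit, g6pc3, went the other way from pck1, with 15.9 and 16.0 CPM at 2 dpa against 9.20 and 11.5 CPM at 0 dpa (0.61, SE 0.15, edgeR adjusted p = 0.00386). The second bisphosphatase genes fbp1b and fbp2 did not pass the filter on low counts.

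**Figure D2:**
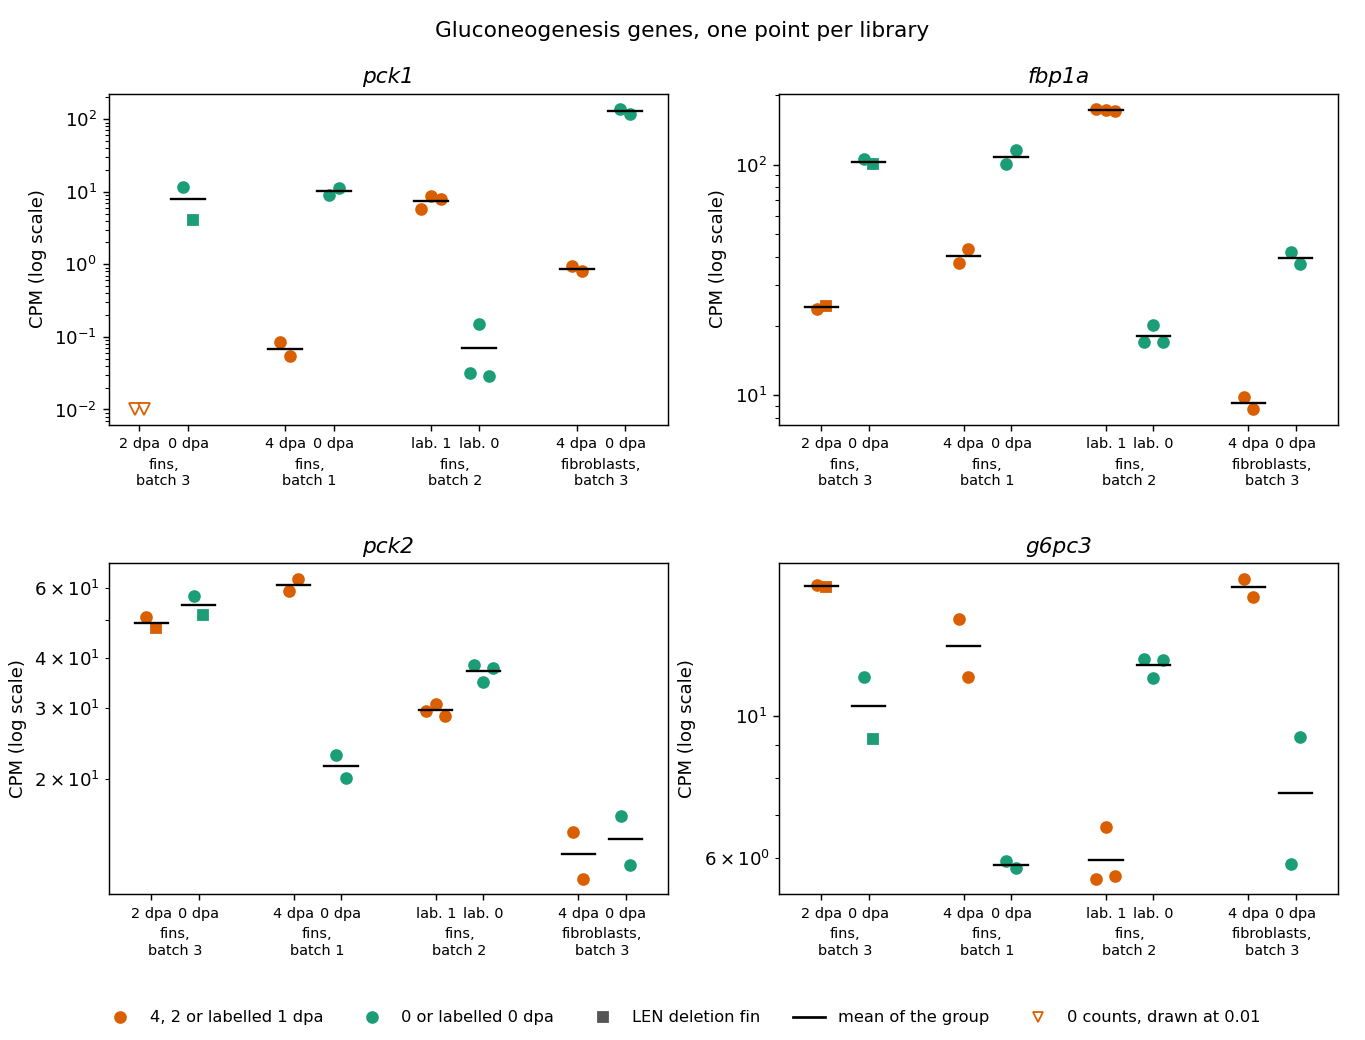
CPM (y axis, log scale) of pck1, fbp1a, pck2 and g6pc3 in every library (x axis, by tissue and batch); squares are LEN deletion fins, lines are group means, and the open triangles mark 0 counts, drawn at 0.01. In pck1 the 2 dpa and 4 dpa groups lie below their 0 dpa groups, and the libraries labelled 1 dpa lie above those labelled 0 dpa.

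Among the triose steps 7 of 12 tested genes were higher at 2 dpa and 1 was lower, against 31.2% and 31.1% of all genes, with a median of 0.39. Enolase makes phosphoenolpyruvate, and its gene eno1a had 171 CPM (no deletion named) and 178 CPM (LEN deletion) at 2 dpa, against 75.8 and 78.5 CPM at 0 dpa. That is a log2 fold change of 1.16 (SE 0.10, edgeR adjusted p = 3.88e-06), and the ratios within a genotype were 1.17 and 1.18. The phosphoglycerate mutase gene pgam1a had 84.6 and 88.8 CPM at 2 dpa, against 49.7 and 37.3 CPM at 0 dpa (0.99, SE 0.13, edgeR adjusted p = 0.000128). Its paralog pgam1b rose less, by 0.31 (SE 0.10, edgeR adjusted p = 0.0185). Smaller increases were called for pgk1 (0.43), the phosphoglycerate kinase gene, pkma (0.35), the pyruvate kinase gene, and gapdhs (0.35), a glyceraldehyde phosphate dehydrogenase gene. Within the LEN deletion pair their log2 ratios of 2 dpa to 0 dpa were 0.66, 0.52 and 0.60, and within the pair with no deletion named 0.24, 0.22 and 0.13, so the pairs differed in size and shared the direction. Of the 7 higher triose genes, gapdhs and pgam1b were not called by DESeq2's test. The low-count enolase gene eno2, known in mammals as the neuronal form, had 243 counts over the 2 dpa fins against 10 counts over the 0 dpa fins (log2 ratio 4.48, 95% counting interval 3.57 to 5.55). The lower one was eno3, the enolase of muscle in mammals, with 186 and 198 CPM at 2 dpa against 340 and 316 CPM at 0 dpa (-0.79, SE 0.10, edgeR adjusted p = 6.93e-05). Thus eno1a and eno3, genes for the same step, changed in opposite directions.

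Lactate dehydrogenase interconverts pyruvate and lactate, with the A subunit known for favouring lactate. At 2 dpa ldha had 139 CPM (no deletion named) and 128 CPM (LEN deletion), against 71.1 and 55.9 CPM at 0 dpa (edgeR log2 fold change 1.06, SE 0.11, adjusted p = 1.04e-05). The B subunit gene ldhba had 286 and 311 CPM at 2 dpa, against 575 and 509 CPM at 0 dpa (-0.88, SE 0.11, edgeR adjusted p = 4.47e-05). Of the reads of this pair, ldha took 32.7 and 29.1% at 2 dpa, against 11.0 and 9.89% at 0 dpa. Transporter genes moved with ldha. The gene slc16a3, whose mammalian counterpart exports lactate, had 19.2 and 11.5 CPM at 2 dpa, against 4.44 and 2.20 CPM at 0 dpa (2.22, SE 0.17, edgeR adjusted p = 1.35e-06). The related slc16a1 had 85.0 and 93.3 CPM at 2 dpa, against 33.1 and 37.6 CPM at 0 dpa (1.32, SE 0.10, edgeR adjusted p = 1.45e-06). The glucose transporter gene slc2a1a did not pass the filter, at 0.269 CPM or less in the 4 fins. At the entry to the mitochondrion, the pyruvate dehydrogenase subunit gene pdha1a rose by 0.33 (SE 0.10, edgeR adjusted p = 0.0176). The genes pdhb and pdk2b were not called (-0.10 and 0.23), pdhb for the beta subunit and pdk2b for a kinase that switches the enzyme off.

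**Figure D3:**
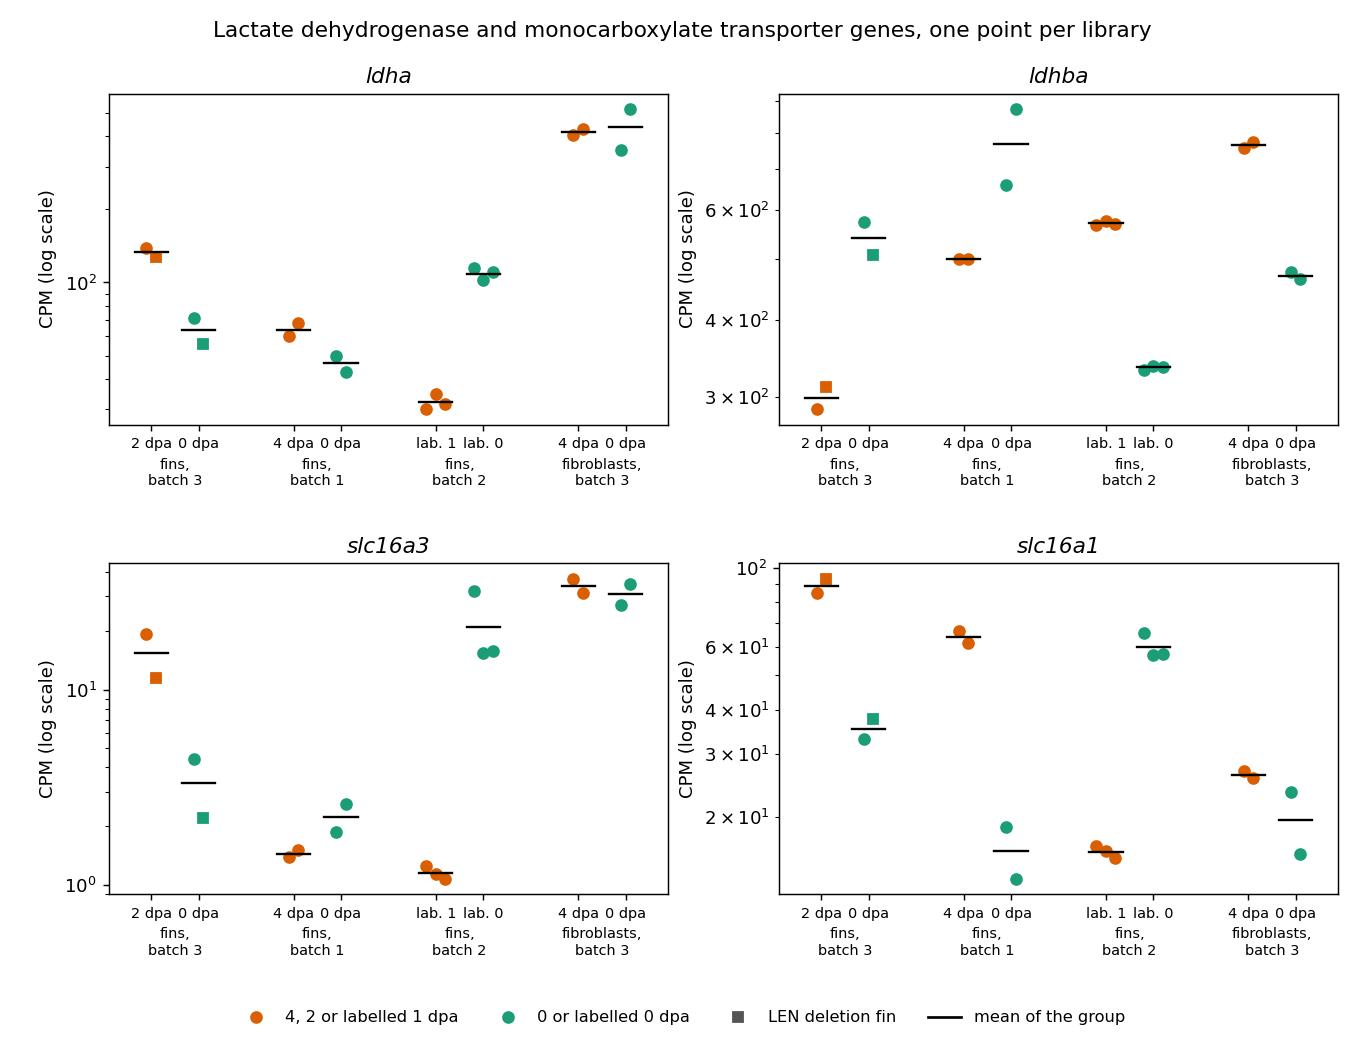
CPM (y axis, log scale) of the lactate dehydrogenase genes ldha and ldhba and the transporter genes slc16a3 and slc16a1 in every library (x axis, by tissue and batch); squares are LEN deletion fins and lines are group means. For slc16a3 the fins at 2 dpa stand at 11.5 and 19.2 CPM, above their 0 dpa fins at 2.20 and 4.44 CPM, and the fins at 4 dpa below theirs.

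Of 11 tested hexose genes 2 were higher and 3 lower at 2 dpa, against 31.2% and 31.1% of all genes, with a median of -0.22. The liver-type phosphofructokinase gene pfklb, for the step that commits sugar to glycolysis, had 5.72 CPM (no deletion named) and 6.53 CPM (LEN deletion) at 2 dpa, against 19.0 and 20.9 CPM at 0 dpa (edgeR log2 fold change -1.72, SE 0.14, adjusted p = 2.53e-06). The hexokinase gene hk2 was lower by a small margin (-0.29), as was the aldolase gene aldocb (-0.35). Higher were tpi1a (1.75), a triose phosphate isomerase gene at 1.23 CPM or less, and gpia (0.36), the glucose phosphate isomerase gene, whose ratio was 0.62 within the LEN deletion pair and 0.14 within the other. The hypoxia-linked genes split. The mitophagy receptor gene bnip3 had 4.10 and 4.26 CPM at 2 dpa, against 9.50 and 11.2 CPM at 0 dpa (-1.32, SE 0.17, edgeR adjusted p = 7.83e-05). The ankyrin repeat gene ankrd37 had 1.14 and 0.735 CPM at 2 dpa, against 0.210 and 0.220 CPM at 0 dpa (2.06, SE 0.49, edgeR adjusted p = 0.00413). With DESeq2's test the calls of gpia, gapdhs, pgam1b, tpi1a, pdha1a, hk2, aldocb and ankrd37 were lost (adjusted p = 0.0520 to 0.105). Markers of other cells moved at the same time. Of 7 leukocyte markers 5 were lower and the other 2 were not called, with a sum of 554 and 688 CPM at 2 dpa against 2049 and 3064 CPM at 0 dpa, and 8 of 10 fibroblast markers were higher, with 28167 CPM (no deletion named) and 25716 CPM (LEN deletion) at 2 dpa against 12056 and 10692 CPM at 0 dpa, while the other 2 were lower. No marker of either list was at 0, and their part in these changes was not tested.

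At 4 dpa, whole fins of batch 1 again had little pck1 and less fbp1a, but pck2 and g6pc3 were higher, and triose genes were called in both directions. Of 34 tested genes 11 were higher and 13 lower than at 0 dpa by edgeR's quasi-likelihood test, against 32.5% and 33% of all genes tested (65.5% in all), so the list was called about as often as other genes. Its median was -0.04, against -0.01 over all genes. Scaling by library size only shifted the median of all genes to 0.44 and gave 16 higher and 8 lower genes of the list; the share of higher calls over all genes was then 72.7%, against 49.7%.

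In these fins pck1 had 0.0846 and 0.0537 CPM (5 counts in all) at 4 dpa, against 8.96 and 11.4 CPM (420 counts) at 0 dpa (edgeR log2 fold change -7.22, SE 0.34, adjusted p = 4.14e-07). Counts for fbp1a were 37.5 and 43.3 CPM at 4 dpa, against 101.1 and 116 CPM at 0 dpa (-1.53, SE 0.13, edgeR adjusted p = 1.12e-05). In contrast pck2 had 58.9 and 63.4 CPM at 4 dpa, against 22.9 and 20.1 CPM at 0 dpa (1.41, SE 0.13, edgeR adjusted p = 1.34e-05). The same direction held for g6pc3, with 14.2 and 11.5 CPM at 4 dpa against 5.94 and 5.78 CPM at 0 dpa (1.03, SE 0.17, edgeR adjusted p = 0.000465). Of the reads of pck1 and pck2 together, pck1 took 0.143 and 0.0847% at 4 dpa, against 28.1 and 36.2% at 0 dpa. The second bisphosphatase gene fbp1b stood at 0.874 and 0.913 CPM at 4 dpa against 0.0530 and 0.546 CPM at 0 dpa, and was not called (1.39, SE 0.61, edgeR adjusted p = 0.0727).

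Of 11 tested triose genes 4 were higher and 4 lower at 4 dpa, against 32.5% and 33% of all genes. The largest increase was that of eno2, with 237 counts over the 4 dpa fins against 3 counts over the 0 dpa fins (log2 ratio 5.47, 95% counting interval 3.91 to 7.76). The mutase gene pgam1a had 52.0 and 48.2 CPM at 4 dpa, against 17.9 and 15.6 CPM at 0 dpa (edgeR log2 fold change 1.48, SE 0.13, adjusted p = 1.03e-05), and took 48.4 to 48.9% of the reads of the pgam1a and pgam1b pair at 4 dpa, against 27.1 to 32.5% at 0 dpa. Lower were eno3, with 188 and 189.6 CPM at 4 dpa against 447 and 718 CPM at 0 dpa (-1.73, SE 0.22, edgeR adjusted p = 0.000194), pgam2, the muscle mutase gene at 0.742 CPM or less, pkma and eno1a. The enolase gene eno1a had 81.0 and 61.7 CPM at 4 dpa, against 82.3 and 108 CPM at 0 dpa, and was called (-0.52, SE 0.17, edgeR adjusted p = 0.0254). That call was lost without replicate 2 at 0 dpa (-0.30, adjusted p = 0.127), without replicate 2 at 4 dpa (-0.34, adjusted p = 0.184) and with library-size scaling (-0.05).

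**Figure D4:**
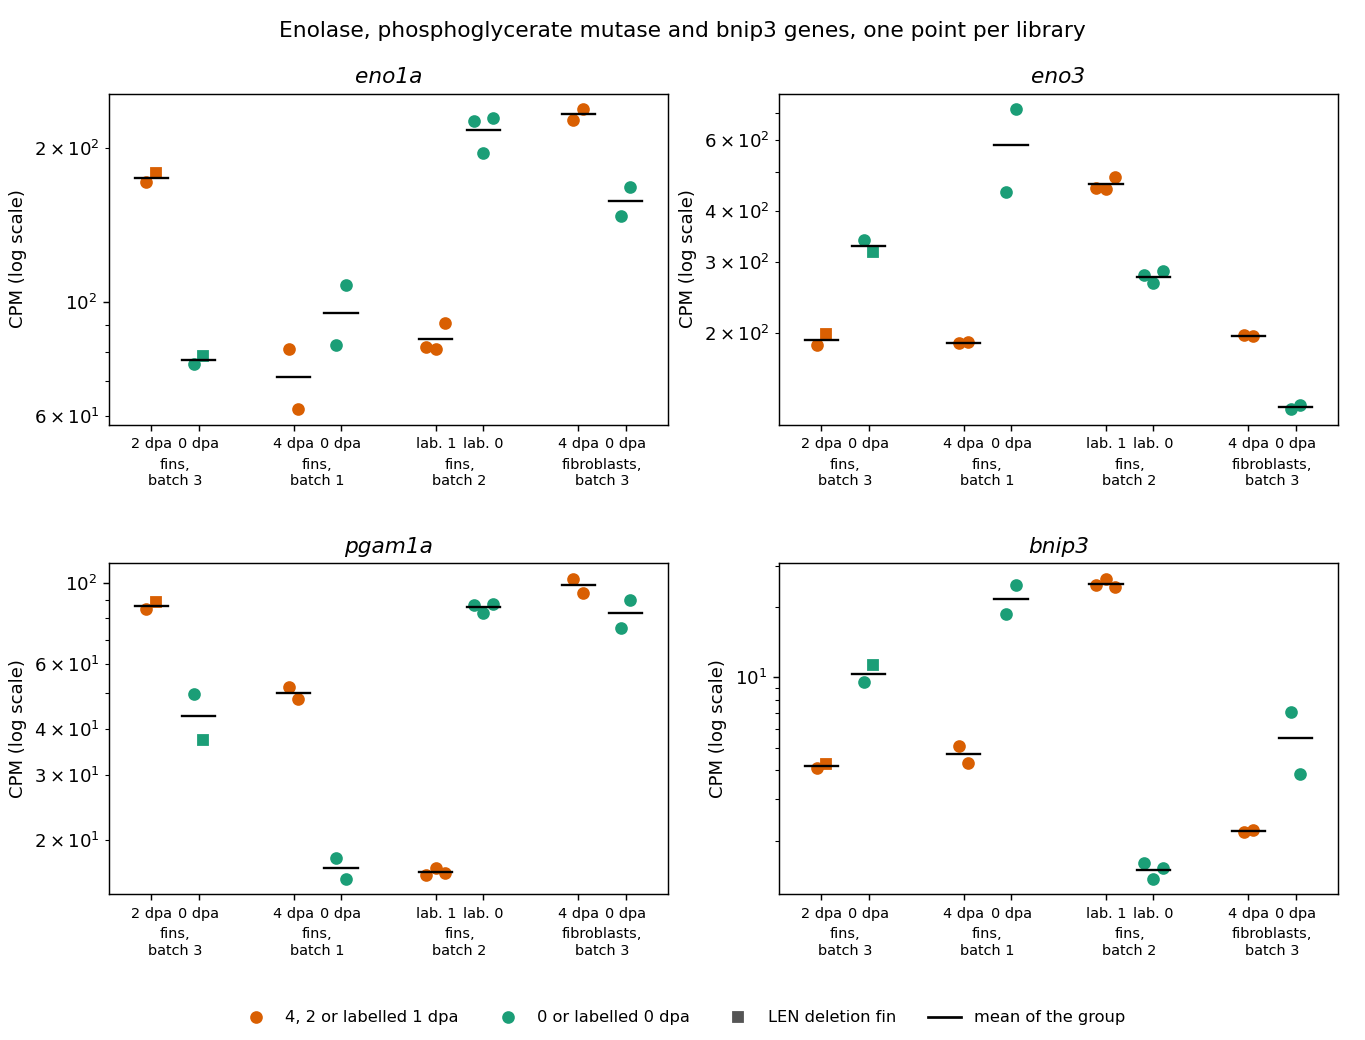
CPM (y axis, log scale) of eno1a, eno3, pgam1a and bnip3 in every library (x axis, by tissue and batch); squares are LEN deletion fins and lines are group means. The fins at 2 dpa have 171 and 178 CPM of eno1a, against 75.8 and 78.5 CPM in their uninjured fins, whereas the fins at 4 dpa reach 61.7 and 81.0 CPM, against 82.3 and 108 CPM at 0 dpa.

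In the hexose steps 1 gene was higher and 3 were lower of 9 tested at 4 dpa, against 32.5% and 33% of all genes. The higher one was tpi1a, with 2.40 and 1.67 CPM at 4 dpa against 0.371 and 0.364 CPM at 0 dpa (edgeR log2 fold change 2.35, SE 0.37, adjusted p = 0.000448). The phosphofructokinase gene pfklb had 9.90 and 8.19 CPM at 4 dpa, against 34.7 and 43.3 CPM at 0 dpa (-2.21, SE 0.16, edgeR adjusted p = 3.89e-06). The aldolase gene aldocb had 25.0 and 22.4 CPM at 4 dpa, against 42.9 and 45.0 CPM at 0 dpa (-0.99, SE 0.12, edgeR adjusted p = 8.50e-05). The hexokinase gene hk2 was called lower (-0.38), but with library-size scaling its value was 0.07, below the shift of 0.44 over all genes. Lactate and transport genes were divided. The transporter gene slc16a1 had 66.4 and 61.7 CPM at 4 dpa, against 18.7 and 13.4 CPM at 0 dpa (1.90, SE 0.16, edgeR adjusted p = 9.56e-06), while slc16a3 had 1.382 and 1.505 CPM at 4 dpa, against 1.86 and 2.60 CPM at 0 dpa (-0.73, SE 0.27, edgeR adjusted p = 0.0393). The lactate dehydrogenase gene ldha had 60.0 and 67.9 CPM at 4 dpa, against 49.9 and 42.9 CPM at 0 dpa (0.36, SE 0.13, edgeR adjusted p = 0.0324). Its partner ldhba had 501.2 and 500.7 CPM at 4 dpa, against 659.6 and 875 CPM at 0 dpa (-0.72, SE 0.18, edgeR adjusted p = 0.00637). With DESeq2's test the calls of ldha, pgam1b and slc16a3 at 4 dpa were lost (adjusted p = 0.0539, 0.0862 and 0.138). A filter at 10 CPM lost those of ldha, pdha1a and pgam1b.

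The inhibitory kinase gene pdk2b had 5.95 and 7.01 CPM at 4 dpa, against 11.8 and 17.0 CPM at 0 dpa (edgeR log2 fold change -1.25, SE 0.20, adjusted p = 0.000525), and pdha1a was higher by 0.33. The hypoxia-linked pair split as at 2 dpa. The bnip3 gene had 5.10 and 4.30 CPM at 4 dpa, against 18.7 and 24.7 CPM at 0 dpa (-2.31, SE 0.18, edgeR adjusted p = 6.21e-06), and ankrd37 had 0.395 and 0.833 CPM at 4 dpa, against 0.159 and 0.0455 CPM at 0 dpa (2.50, SE 0.74, edgeR adjusted p = 0.0140). Of the 24 calls at 4 dpa, 1 was lost without replicate 1 at 0 dpa (pgam1b, 0.25), 4 without replicate 2 at 0 dpa (ldha, 0.27, slc16a3, -0.45, ankrd37, 1.84, and eno1a, above), 7 without replicate 1 at 4 dpa and 10 without replicate 2 at 4 dpa. Without replicate 1 at 4 dpa the lost ones were gapdhs (0.48), hk2 (-0.46), ldha (0.47), ldhba (-0.70), pdha1a (0.32), pgam1b (0.26) and slc16a3 (-0.65). Without replicate 2 at 4 dpa they were ankrd37 (1.85), hk2 (-0.29), ldha (0.26), ldhba (-0.72), pdha1a (0.35), pgam1b (0.38), pgam2 (-1.43), pkma (-0.57), slc16a3 (-0.80) and eno1a. Of 10 epidermal markers 9 were lower at 4 dpa, with sums of 37452 and 42116 CPM against 115589 and 141327 CPM at 0 dpa, none at 0, and all 10 fibroblast markers were higher, with 44607 to 52052 CPM at 4 dpa against 6448 to 6631 CPM at 0 dpa. Osteoblast markers were higher in 4 of 6 cases and lower in 1, summing to 13719 and 15638 CPM at 4 dpa against 473 and 573 CPM at 0 dpa. Of 7 leukocyte markers 4 were lower and 1 higher, with 1003 and 1014 CPM at 4 dpa against 2775 and 3812 CPM at 0 dpa, and all 6 endothelial markers were higher. The part of these cell type markers in the changes was not tested.

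The change by 4 dpa differed from the change by 2 dpa in 11 of 37 tested genes, 3 more positive and 8 more negative, against 12.6% and 8.72% of all genes tested (21.3% in all). The difference was tested as 1 contrast, each time point against uninjured fins of its own batch, with a median of 0.01 in the list and 0.05 over all genes. Among the called genes the difference was largest in size for slc16a3, higher at 2 dpa and lower at 4 dpa (difference -2.91, SE 0.31, edgeR adjusted p = 0.0001). Next came eno1a, higher at 2 dpa and lower at 4 dpa (-1.63, SE 0.21, edgeR adjusted p = 0.00047), and pck2, called higher at 4 dpa and not called at 2 dpa (1.62, SE 0.16, edgeR adjusted p = 7.92e-05). These 3 calls of a difference held under every alternative that was run. The calls of slc16a3 and eno1a as lower at 4 dpa did not. With library-size scaling both were lost (-0.26 for slc16a3 and -0.05 for eno1a). The difference for pkma was -0.94, for pdk2b -1.43, for bnip3 -0.94, for eno3 -0.89, for ldha -0.65 and for aldocb -0.60, and that for fbp1a was 0.64 and for hk1 0.50. Each of these 8 lost its call without the LEN deletion fin at 2 dpa, and likewise without the uninjured LEN deletion fin, where the values were -0.80 for pkma, -1.30 for pdk2b, -1.05 for bnip3, -0.80 for eno3, -0.55 for ldha, -0.52 for aldocb, 0.68 for fbp1a and 0.45 for hk1. Without either fin with no deletion named, or without replicate 1 at 4 dpa, 6 calls were lost, and without replicate 2 at 4 dpa 5 calls. With genotype as a term, leaving out either fin of a genotype also takes its partner out of this contrast. Both leave-outs of a genotype are therefore the same check, not separate ones. Library-size scaling, which put the median of all genes at 0.44, gave 9 more positive and 3 more negative genes, and 89.2% of all calls were then positive, against 59.1%. Time point and batch cannot be told apart here, beyond what each batch's own uninjured fins take up.

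In fibroblasts at 4 dpa pck1 and fbp1a were again far lower, ldha was not called, and the glycolysis genes changed little on balance. Of 35 tested genes 10 were higher and 7 lower than in uninjured fibroblasts, against 27.8% and 26.2% of all genes tested (53.9% in all), a share near that of other genes. The median was 0.07 in the list and 0.00 over all genes. With library-size scaling, which moved the median of all genes to 0.32, 16 were higher and 4 lower, and 67.7% of all calls were higher, against 51.5%.

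The carboxykinase gene pck1 had 0.938 and 0.798 CPM in fibroblasts at 4 dpa, against 139.8 and 119.7 CPM at 0 dpa (edgeR log2 fold change -7.11, SE 0.22, adjusted p = 5.22e-07). Its mitochondrial counterpart pck2 had 14.8 and 11.2 CPM at 4 dpa, against 16.1 and 12.2 CPM at 0 dpa, with overlap and no call (-0.02, SE 0.23, edgeR adjusted p = 0.957). Together with these, fbp1a had 9.83 and 8.68 CPM at 4 dpa, against 42.0 and 37.2 CPM at 0 dpa (-1.99, SE 0.18, edgeR adjusted p = 1.94e-05), and g6pc3 had 16.4 and 15.4 CPM at 4 dpa, against 5.87 and 9.28 CPM at 0 dpa (1.18, SE 0.25, edgeR adjusted p = 0.00311). The pattern over pck1, fbp1a and g6pc3 had the same signs as in the whole fins at 2 and 4 dpa, which are other libraries with their own uninjured fins. The pck1 difference between fibroblasts and fins at 4 dpa was 0.16 (SE 0.39, edgeR adjusted p = 0.804), so the fall was not shown to differ in size.

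Of the 10 tested triose genes in fibroblasts 3 were higher and the other 7 were not called. Over all genes 27.8% were higher and 26.2% lower. The higher ones were eno1a, with 227 and 238 CPM at 4 dpa against 147 and 168 CPM at 0 dpa (edgeR log2 fold change 0.67, SE 0.14, adjusted p = 0.0034), eno3, with 197.0 and 196.5 CPM at 4 dpa against 129 and 132 CPM at 0 dpa (0.70, SE 0.14, edgeR adjusted p = 0.00211), and eno2, with 3.75 and 3.14 CPM at 4 dpa against 0.696 and 0.660 CPM at 0 dpa (2.45, SE 0.38, edgeR adjusted p = 0.000529). The enolase genes that went opposite ways in fins at 2 dpa thus had the same sign here. Hexose genes were 3 higher and 4 lower of 12, against the same shares of all genes. Among the lower ones aldocb had 151 and 163 CPM at 4 dpa against 369 and 599 CPM at 0 dpa (-1.52, SE 0.23, edgeR adjusted p = 0.000799). The hexokinase genes hk1 (-0.58) and hk2 (-0.47) and pfklb (-1.42) were lower, and aldoaa (0.63), a second aldolase gene, tpi1a (1.61) and aldoab (3.33, from 92 against 8 counts) were higher. The B subunit gene ldhba had 755 and 772 CPM at 4 dpa, against 477 and 465 CPM at 0 dpa (0.80, SE 0.15, edgeR adjusted p = 0.00152), whereas ldha had 405 and 430.2 CPM at 4 dpa, against 352 and 520.1 CPM at 0 dpa, with overlap (0.04, SE 0.19, edgeR adjusted p = 0.864). Pyruvate dehydrogenase subunit gene pdha1a had 199.7 and 189.8 CPM at 4 dpa, against 125 and 132 CPM at 0 dpa (0.71, SE 0.14, edgeR adjusted p = 0.00222).

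The hypoxia-linked genes of fibroblasts split as in fins. The ankrd37 gene had 10.7 and 8.93 CPM at 4 dpa, against 1.06 and 0.755 CPM at 0 dpa (edgeR log2 fold change 3.54, SE 0.31, adjusted p = 1.64e-05), and bnip3 had 2.17 and 2.22 CPM at 4 dpa, against 7.10 and 3.87 CPM at 0 dpa (-1.22, SE 0.35, edgeR adjusted p = 0.0153). Of the 17 fibroblast calls, those of hk1, hk2, pfklb, tpi1a and bnip3 were lost without either replicate at 4 dpa. Their values without replicate 1 were -0.52, -0.32, -1.53, 1.26 and -1.22, and those without replicate 2 were -0.63, -0.62, -1.30, 1.91 and -1.19. Those of g6pc3 (1.11), aldoaa (0.57) and aldoab (2.83) were lost without replicate 1 at 4 dpa, and without that library 3827 genes were called in all, against 6477. Genes of tissue dissociation and heat stress moved as well, with all 14 measured lower, summing to 27910 and 29250 CPM at 4 dpa against 134211 and 180056 CPM at 0 dpa. The summed level of 10 epidermal markers was 6599 to 6901 CPM at 4 dpa, against 20533 to 39722 CPM at 0 dpa. None of these genes was at 0, and their part in the fibroblast changes was not tested.

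The fibroblast response differed from the whole fin response at 4 dpa in 14 of 37 tested genes, 9 more positive and 5 more negative, against 18.8% and 17.4% of all genes tested, 36.3% in all (edgeR contrast over 8 libraries; median 0.08 in the list and 0.07 over all genes). The enolase gene eno3 was lower in fins and higher in fibroblasts (difference 2.46, SE 0.29, edgeR adjusted p = 0.000127). In the same way ldhba (1.56, SE 0.24, edgeR adjusted p = 0.000638) and eno1a (1.22, SE 0.24, edgeR adjusted p = 0.003) were lower in fins and higher in fibroblasts. The gain of pck2, slc16a1 and pgam1a in fins had no like size in fibroblasts (differences -1.39, -1.34 and -1.08, edgeR adjusted p = 0.00236, 0.005 and 0.00196). The difference for eno2 was -2.82 and that for hk1 -0.78. Calls of aldoaa (0.98) and pdk2b (1.23) were lost without replicate 2 of the uninjured fins of batch 1, where the values were 0.57 and 0.76, and so were those of pkma (0.38 without that library, against 0.74 with it), slc16a3 (0.56, against 1.02), bnip3 (0.73, against 1.13) and aldoab (2.23, against 2.70), which were also lost without several other libraries. With library-size scaling 5 were more positive and 6 more negative, and 38.9% of all calls were positive, against 52%. Batch and tissue go together in this comparison, and a constant difference between them cancels. A shift that differs between 0 and 4 dpa does not cancel. Of 14 dissociation and heat stress genes 1 was more positive and 5 more negative in this contrast (median -0.03). Epidermal markers counted 1 and 2 of 10 (median -0.82). The part of either list in the differences was not tested.

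Uninjured fibroblasts differed from uninjured fins of batch 3 in 27 of 35 tested genes. The fin group was the LEN deletion fin and the fin with no deletion named, so its spread holds genotype as well. Fibroblasts had 15 higher and 12 lower, against 31.9% and 31% of all genes tested (62.9% in all). The list's median was 0.34, against -0.03. The largest was pdk2b, with 217 and 189.0 CPM in fibroblasts against 2.096 and 2.103 CPM in fins (edgeR log2 fold change 6.58, SE 0.19, adjusted p = 7.94e-05). In the uninjured fins of batch 1 the same gene had 11.8 and 17.0 CPM, and with those fins in place of the batch 3 fins the value was 3.74. Fibroblasts had more pck1, at 139.8 and 119.7 CPM against 11.6 CPM in the fin with no deletion named and 4.14 CPM in the LEN deletion fin (4.05, SE 0.48, edgeR adjusted p = 0.00123).

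Several glycolysis genes stood higher in these fibroblasts. The aldolase gene aldocb had 369 and 599 CPM in fibroblasts, against 49.4 and 46.1 CPM in fins (edgeR log2 fold change 3.33, SE 0.26, adjusted p = 0.000277). The lactate genes ldha, with 352 and 520.1 CPM in fibroblasts against 71.1 and 55.9 CPM in fins (2.77, SE 0.24, edgeR adjusted p = 0.000359), and slc16a3, with 27.0 and 34.9 CPM in fibroblasts against 4.44 and 2.20 CPM in fins (3.22, SE 0.35, edgeR adjusted p = 0.000784), were higher as well. Of the reads of ldha and ldhba, ldha took 42.5 and 52.8% in fibroblasts, against 11.0 and 9.89% in fins. The dehydrogenase gene gapdhs had 1363 and 1811 CPM in fibroblasts, against 489 and 375 CPM in fins (1.87, SE 0.21, edgeR adjusted p = 0.000825). Both hexokinase genes were about 1 log2 unit higher, hk1 by 1.02 and hk2 by 1.0998.

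**Figure D5:**
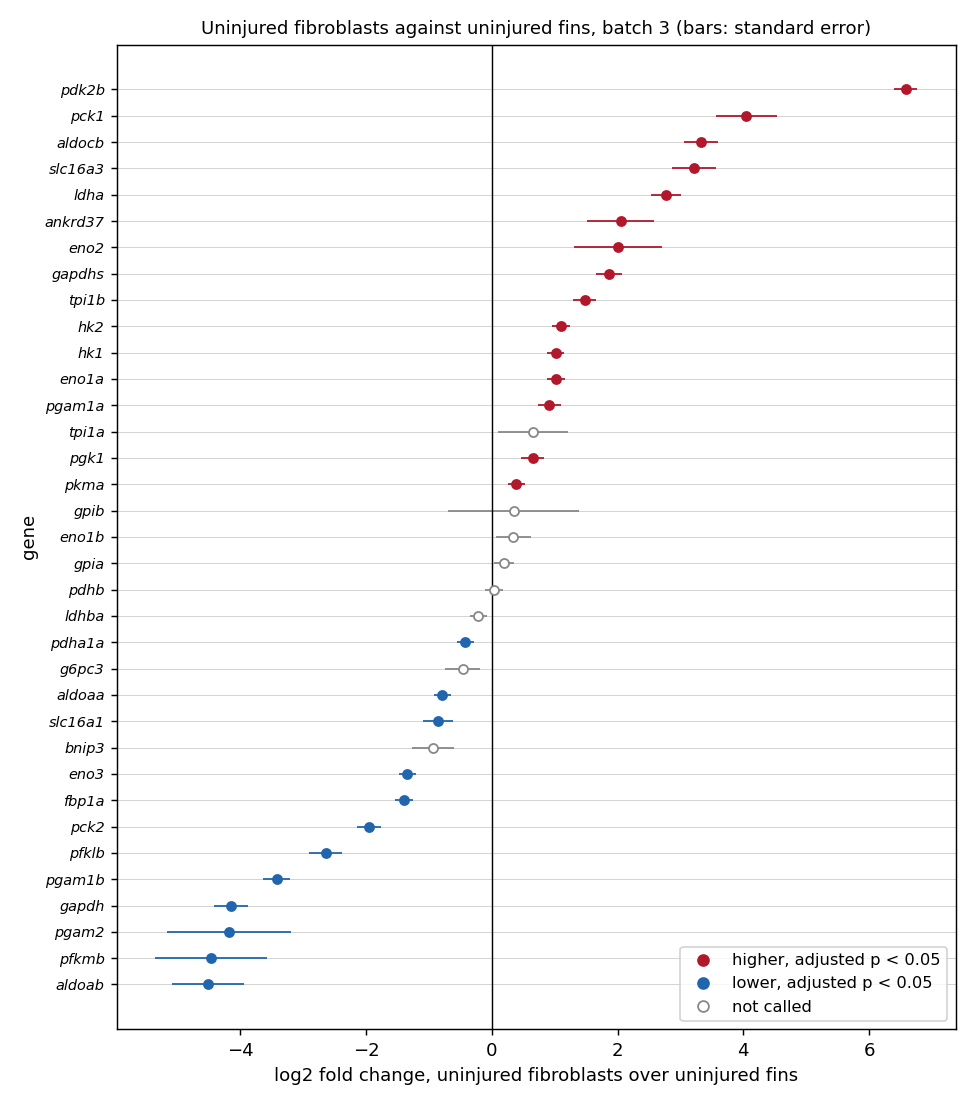
Log2 fold change (x axis, bars are standard errors) of uninjured fibroblasts over uninjured fins of batch 3 for the 35 tested genes (y axis, sorted by fold). Red points were higher and blue points lower in fibroblasts at an adjusted p under 0.05. The kinase gene pdk2b lies furthest right at 6.58, and the low-count genes aldoab and pfkmb furthest left.

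Other members were lower in fibroblasts than in fins. The mutase gene pgam1b had 5.93 and 4.18 CPM in fibroblasts, against 54.4 and 53.3 CPM in fins (edgeR log2 fold change -3.42, SE 0.22, adjusted p = 0.000144), while pgam1a had 75.3 and 89.9 CPM in fibroblasts, against 49.7 and 37.3 CPM in fins (0.92). Of the reads of this pair pgam1a took 92.7 to 95.6% in fibroblasts, against 47.8 and 41.1% in fins. The genes pfklb (-2.64, SE 0.27, edgeR adjusted p = 0.000598) and pck2 (-1.95, SE 0.19, edgeR adjusted p = 0.000548) were lower too, and so were fbp1a (-1.40) and eno3 (-1.34). Dissociation and heat stress genes were higher in fibroblasts in 14 of 14 cases, with sums of 134211 and 180056 CPM against 792 and 1128 CPM in fins. Of 11 tested injury genes 8 were higher in fibroblasts and 1 was lower, against 31.9% and 31% of all genes tested. The 12 injury genes summed to 14625 and 16142 CPM in these fibroblasts, against 1131 and 1453 CPM in fins. The part of either list in the differences was not tested. Of 10 fibroblast markers 9 were higher in fibroblasts, with sums of 56307 and 57344 CPM against 10692 and 12056 CPM in fins, and the epidermal markers summed to 20533 and 39722 CPM in fibroblasts against 71730 and 85877 CPM in fins. Tissue and the way the cells were isolated cannot be told apart. Library-size scaling moved the median of all genes to -0.57 and gave 11 higher and 16 lower genes, with 31.7% of all calls higher, against 50.7%. Without the uninjured LEN deletion fin 9 calls were lost and without the other fin 7, in both cases those of slc16a1, pgk1, pdha1a, pkma, eno2, ankrd37 and pgam2, and in the first also pgam1a and pfkmb. Their values without the LEN deletion fin were -0.75, 0.49, -0.46, 0.30, 3.21, 2.097, -3.77, 0.73 and -4.42. The value of slc16a1 was -0.86 here and 0.22 with the uninjured fins of batch 1 in place of those of batch 3, and that of pkma was 0.39 and became -0.16 with library-size scaling. Those batch 1 fins also moved pck2 to -0.68, eno3 to -2.24, pfklb to -3.67, hk1 to 1.70, pgam1a to 2.22, ankrd37 to 3.07, eno2 to 3.06, pgam2 to -3.55 and aldoab to -2.32, each still called in the same direction, while the calls of gapdh (-2.83, against -4.14), pdha1a (-0.0707) and pkma (0.30) were lost.

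The genes gapdh and pfkmb followed single groups of libraries. The gapdh gene had 19.1 to 22.4 CPM in the 4 fin libraries of batch 3 and 15.3 CPM in replicate 2 of the uninjured fins of batch 1. In each of the other 13 libraries it had 1.48 CPM or less, replicate 1 of that group included (0.954 CPM). The skeletal actin gene acta1b, a muscle marker, had 6.04 to 6.84 CPM in those 4 fins, 1.00 CPM in that replicate 2 and 0.314 CPM or less elsewhere. The muscle phosphofructokinase gene pfkmb had 0.674 to 1.07 CPM in the same 4 fins and 0.198 CPM or less in the other libraries. At 4 dpa in batch 1 gapdh was not called (edgeR log2 fold change -4.57, SE 1.70, adjusted p = 0.0877). The 13 muscle markers summed to 56.2 and 56.5 CPM at 2 dpa and 93.4 and 95.3 CPM at 0 dpa in batch 3. In the uninjured fins of batch 1 they summed to 47.1 and 70.9 CPM. In these groups 3 to 5 of them, pvalb2 always among these, were at 0 counts. The libraries labelled 1 dpa had a similar sum of 55.9 to 64.6 CPM, with gapdh at only 0.247 to 0.415 CPM. The sum of the 13 markers did not follow gapdh. The gene acta1b is 1 of them, picked after its values were seen, and does not stand for the list. The part of these markers in the levels of gapdh and pfkmb was not tested.

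In batch 2, 30 of 33 tested genes differed between the libraries labelled 1 dpa and those labelled 0 dpa, 8 higher and 22 lower, against 42% and 39.9% of all genes tested (81.9% in all). The list's median was -0.61, against 0.06 over all genes. Library-size scaling put the median of all genes at 0.16 and gave 8 higher and 19 lower. Injury genes moved as well, 9 of 11 tested were lower in the libraries labelled 1 dpa and the other 2 were not called. Of 7 leukocyte markers 6 were higher, summing to 4652 to 5298 CPM under the label 1 dpa against 437 to 614 CPM under the label 0 dpa. All 6 osteoblast markers were higher, with 360 to 409 CPM under the label 1 dpa against 36.9 to 46.5 CPM under the label 0 dpa, and so were all 7 tested nerve and glia markers, with 192 to 199.9 CPM under the label 1 dpa against 88.3 to 94.3 CPM under the label 0 dpa. The part of these cells in the differences was not tested. No direction after injury was drawn from this batch.

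In these libraries pck1 had 5.85, 8.65 and 7.94 CPM under the label 1 dpa, against 0.0315, 0.149 and 0.0292 CPM under the label 0 dpa (edgeR log2 fold change 6.72, SE 0.36, adjusted p = 2.30e-07). The bisphosphatase gene fbp1a had 175, 173 and 171 CPM in those labelled 1 dpa, against 17.1, 20.2 and 17.1 CPM in those labelled 0 dpa (3.32, SE 0.08, edgeR adjusted p = 2.44e-09). Likewise bnip3 had 24.7, 26.4 and 24.3 CPM in those labelled 1 dpa, against 1.61, 1.37 and 1.52 CPM in those labelled 0 dpa (4.13, SE 0.09, edgeR adjusted p = 2.51e-09). These 3 genes were picked among called genes whose groups did not overlap, so the lack of overlap is no separate result. The genes pdk2b (2.68), pgam2 (2.49), pfklb (2.02), ldhba (0.83) and eno3 (0.82) were the other higher ones.

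Lower in the libraries labelled 1 dpa were the transporter gene slc16a3, with 1.25, 1.14 and 1.07 CPM under that label against 32.0, 15.4 and 15.7 CPM under the label 0 dpa (edgeR log2 fold change -4.12, SE 0.42, adjusted p = 0.000201), and slc16a1, with 15.4 to 16.6 CPM under the label 1 dpa against 56.9 to 65.5 CPM under the label 0 dpa (-1.84). The mutase gene pgam1a had 16.0 to 16.8 CPM under the label 1 dpa, against 83.0 to 87.6 CPM under the label 0 dpa (-2.33, SE 0.05, edgeR adjusted p = 2.34e-09). For ldha the values were 30.0, 34.6 and 31.6 CPM under the label 1 dpa, against 114, 102 and 110.0 CPM under the label 0 dpa (-1.70, SE 0.07, edgeR adjusted p = 3.88e-08). The genes pkma (-1.59), gpia (-1.34), eno1a (-1.29), pgk1 (-1.27), eno1b (-1.16), g6pc3 (-0.95) and aldocb (-0.90) were lower too. In all, 7 of 9 tested triose genes and 7 of 10 hexose genes were lower, against 39.9% of all genes. The gene aldocb had 30.1 to 34.3 CPM under the label 1 dpa, against 50.1 to 76.6 CPM under the label 0 dpa. It and hk2 (-0.61) were lower here and were called lower in fins at 2 dpa and at 4 dpa too. Many others had the opposite sign here from fins at 2 and 4 dpa, among them pck1, fbp1a, bnip3, pfklb, ldhba, eno3, pgam1a, slc16a1, ldha and g6pc3. Batch 2 goes against its labels, so neither set was read as a direction after injury.

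Fins with the LEN deletion were set against the fins with no deletion named in these genes by ratio only, with 1 library of each. At 2 dpa none of the 34 genes with at least 50 counts in the pair differed by 2-fold or more, and the log2 ratios of the LEN deletion fin to the fin with no deletion named ran from -0.74 (slc16a3) to 0.61 (aldoab), with a median of 0.06. At 0 dpa 2 of 31 genes did, pck1 with 132 against 332 counts (-1.48, 95% counting interval -1.79 to -1.19) and slc16a3 with 70 against 127 counts (-1.01, -1.46 to -0.58). How many of all genes differed by 2-fold was not counted, so these counts have no share to stand against. The ratios at 0 dpa ran from -1.48 to 0.66 (pgam2), with a median of -0.11. Of the smaller ratios at 0 dpa with an interval apart from 0, most were below 0. Among these were pgam1a (-0.42, -0.53 to -0.30), gpia (-0.41, -0.47 to -0.35), gapdhs (-0.38, -0.42 to -0.35) and pgk1 (-0.35, -0.41 to -0.29). Above 0 were bnip3 (0.24, 0.01 to 0.48), slc16a1 (0.18, 0.06 to 0.31) and aldoaa (0.05, 0.01 to 0.10). These intervals cover counting error only, and the ratios have no replicate check.

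Related pathways were described from lists of the other genes around these steps. Over all genes tested, 31.2% were called higher and 31.1% lower at 2 dpa, 32.5% and 33% in fins at 4 dpa, and 27.8% and 26.2% in fibroblasts at 4 dpa, and the counts of each list stand against these shares. At 2 dpa the pentose phosphate genes, which take sugar to nucleotides, counted 5 higher and 1 lower of 9 (median 0.40), and at 4 dpa 7 and 1 of 9 (median 0.58). Examples at 4 dpa were prps1a (1.14) and pgls (1.59) as higher and tktb (-0.83) as the lower one. In fibroblasts at 4 dpa 5 of 9 were higher and 2 lower (median 0.48). Of 14 glycogen genes 8 were lower at 2 dpa and the other 6 were not called, with a median of -0.52. There the glycogenin gene gyg1b, which primes glycogen, had a log2 fold change of -5.56 (SE 0.18, edgeR adjusted p = 1.60e-07). It was lower at 4 dpa in fins (-2.63) and in fibroblasts (-3.08) as well. Of the glycogen genes 4 of 14 were lower and 2 higher in fins at 4 dpa (median 0.13), fewer than the shares over all genes, and 5 of 13 were lower and 2 higher in fibroblasts (median -0.37).

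The citrate cycle list continues pyruvate use in the mitochondrion and also holds aco1 and idh1, which encode cytosolic enzymes. Its genes counted 12 higher and 1 lower of 18 in fibroblasts at 4 dpa, against 27.8% and 26.2% of all genes. The median was 0.69, with suclg1 (2.00, SE 0.15, edgeR adjusted p = 6.29e-06) and sdhdb (1.46) among the higher ones. In fins the genes of this list were higher in 3 and lower in 2 of 18 at 4 dpa (median 0.14). In the test of the difference 11 of 18 were more positive in fibroblasts and 2 more negative, against 18.8% and 17.4% of all genes. Other lactate and pyruvate genes counted 6 higher and 3 lower of 12 in fibroblasts, and 1 higher and 6 lower of 12 in fins at 4 dpa. The mitochondrial pyruvate carrier gene mpc1 rose in fibroblasts (1.84) and the lactate dehydrogenase gene ldhd, for D-lactate, fell (-3.71). In fins at 4 dpa pdk3b (-2.19), for a kinase that switches pyruvate dehydrogenase off, and pdp1 (-1.27), for a phosphatase that switches it on, were lower. Regulators of sugar genes were lower in 14 and higher in 3 of 20 cases in fins at 2 dpa, 13 and 1 of 20 at 4 dpa and 14 and 4 of 21 in fibroblasts, with medians of -0.81, -1.05 and -0.92, against 31.1%, 33% and 26.2% of all genes lower. Among them the glucocorticoid-responsive genes klf15 (-3.53) and fkbp5 (-3.97) fell at 2 dpa, and klf15 fell in fins (-1.68) and fibroblasts (-2.09) at 4 dpa. The hypoxia response list had 9 higher and 8 lower of 27 at 2 dpa (median 0.05), near the 31.2% and 31.1% of all genes. In fins at 4 dpa more were lower than higher, 8 higher and 13 lower of 27 (median -0.41), against 32.5% and 33% of all genes. Values there ran from -2.58 to 3.32, and the collagen prolyl hydroxylase genes p4ha1a (2.96) and p4ha1b (3.32) were among the 8 higher ones. In fibroblasts 6 were higher and 9 lower of 27 (median 0.01). The sugar transporter gene slc2a10 rose in fins at 2 dpa (3.36), in fins at 4 dpa (3.07) and in fibroblasts (1.65). Its list of other transporters had 5 higher and 2 lower of 11 at 2 dpa and 4 higher and 0 lower of 9 in fins at 4 dpa. In fibroblasts it had 2 higher and 2 lower of 9 (median -0.22).

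Among the 41 genes some were measured too thinly to compare. The glucose transporter gene slc2a1a, the phosphofructokinase gene pfkma, the aldolase gene aldoca, the pyruvate kinase gene pkmb and fbp2 stayed at 0.390 CPM or less in all 18 libraries. Of these, pfkma and aldoca were tested in fibroblasts (log2 fold change 2.52 and -0.11, edgeR adjusted p = 0.0727 and 0.934) and pkmb at 2 dpa (0.65, edgeR adjusted p = 0.391). In the contrasts between responses pfkma (2.50) and slc2a1a (4.71) were tested for fibroblasts against fins and pkmb (-2.68) for 4 dpa against 2 dpa, and none of these tests gave a call (edgeR adjusted p = 0.248, 0.114 and 0.230). The isomerase gene gpib reached 1.70 CPM at most. Well counted but seldom called were tpi1b, the second triose phosphate isomerase gene, at 67.1 to 303 CPM, and pdhb, at 97.9 to 135 CPM. Of the 7 comparisons tpi1b was called in batch 2 (-0.69) and in uninjured fibroblasts against fins (1.48), and pdhb in batch 2 (-0.13). How the counting treated reads shared by paralogs, such as eno1a and eno1b or aldoaa and aldoab, was not checked. Paralog shares compare groups, not the amounts of the 2 proteins.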

How the data were processed

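RNA was measured in 18 of the 36 samples, and the 18 accessibility samples were not used. The authors deposited raw read counts per gene symbol for each library; per the labels' protocols a stranded mRNA kit was used. The submitters' processing notes name Trim Galore 0.6.4, TopHat2 2.1.1, HTSeq 1.6.1 and the build danRer10, without roles; no source used here gives the strand setting or the annotation behind the counts. The deposited counts list multiply aligned reads as 0. Reads in no gene made up 26.5 to 39% and ambiguous reads 0.246 to 0.645% of all listed counts, which include these reads besides the gene counts. Both were left out of library sizes. Groups came from the labels.

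Counts were scaled with TMM and tested by edgeR 4.0.16 (quasi-likelihood, Benjamini-Hochberg over all genes passing edgeR's filter on low counts, threshold 0.05) in R 4.3.3. Each comparison was fitted on its own groups. The fins at 2 dpa were fitted with genotype as a block. DESeq2 1.42.0, other scalings and filters, a replicate block and leaving out each library were alternatives. Scripts were tested on simulated data. Depth is given with the results, and counting intervals (95%) and the floor of 3 counts cover counting error only.

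The members and lists were chosen with earlier results of these data known. Values per library go to up to 6 called genes per direction with the largest change, a mean of at least 5 CPM in the higher group and no overlap, and to paralogs or next steps. Some others are given because they bear on these, chosen after their values were seen. From each other list up to 3 genes with the smallest p were named. No sequences are shown, since the tables at hand hold none. Figures were drawn with matplotlib 3.10.9.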

Additional observations from a re-analysis of the deposited data

Results flagged for a closer look

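In 14 of 37 tested genes the change from 0 to 4 dpa differed between fibroblasts and whole fins, by edgeR's test of the difference itself. Over all genes tested the share was 36.3%, near that of the list, and 8 of the 14 calls held under every alternative run. More positive in fibroblasts were aldoab (2.70), eno3 (2.46), ldhba (1.56), pdk2b (1.23), eno1a (1.22), bnip3 (1.13), slc16a3 (1.02), aldoaa (0.98) and pkma (0.74), as differences of log2 fold changes. More negative were eno2 (-2.82), pck2 (-1.39), slc16a1 (-1.34), pgam1a (-1.08) and hk1 (-0.78).

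In 11 of 37 tested genes the change of whole fins by 4 dpa differed from that by 2 dpa, by the same kind of test. Over all genes tested the share was 21.3%, and 3 of the 11 calls held under every alternative run. More positive at 4 dpa were pck2 (1.62), fbp1a (0.64) and hk1 (0.50). More negative were slc16a3 (-2.91), eno1a (-1.63), pdk2b (-1.43), pkma (-0.94), bnip3 (-0.94), eno3 (-0.89), ldha (-0.65) and aldocb (-0.60). The reasons for these differences were not tested.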

How the results depend on the processing

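Of the genes called, 13 of 24 in fins at 4 dpa, 27 of 30 in batch 2, 9 of 17 in fibroblasts, 15 of 23 in fins at 2 dpa, 8 of 14 in fibroblasts against fins, 17 of 27 in uninjured fibroblasts and 3 of 11 between 4 and 2 dpa kept their call under every alternative run. Library-size scaling gave 8 lower genes in fins at 4 dpa, 16 higher and 4 lower in fibroblasts, 5 more positive in fibroblasts against fins, and 9 more positive and 3 more negative between 4 and 2 dpa. It turned the sign of hk2 in fins at 4 dpa (0.072) and of pkma in uninjured fibroblasts (-0.16). With the uninjured fins of batch 1, slc16a1 turned to 0.22 in uninjured fibroblasts. A filter at 10 CPM, which tests fewer genes, left 5 higher in fins at 4 dpa, 5 higher in batch 2 and 6 higher in fibroblasts. DESeq2's test called 9 higher at 2 dpa. Apart from the filter, the cause was not tested.

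Leaving out 1 library gave 7 to 11 higher and 7 to 16 lower genes in fins at 4 dpa, 8 to 8 and 21 to 22 in batch 2, and 6 to 16 and 3 to 9 in fibroblasts (3827 to 7525 genes called in all). It gave 3 to 8 more positive and 5 to 9 more negative in fibroblasts against fins (2971 to 5167 in all), 10 to 13 higher and 8 to 13 lower in uninjured fibroblasts, and 1 to 5 and 2 to 11 between 4 and 2 dpa (1349 to 3175 in all). At 2 dpa it leaves no residual degrees of freedom, so no test was run. A lone library was assumed to vary like the other groups.

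Replicate numbers were not shown to pair samples (correlations of deviations 0.0143 in fins at 4 dpa, 0.0795 in fibroblasts and -0.127 to 0.0836 in batch 2, where not every library correlated best with its own number). With the replicate block 11 genes were higher and 14 lower in fins at 4 dpa, 8 and 22 in batch 2, 11 and 7 in fibroblasts, and 10 and 5 in the fibroblast difference. Low counts limit pck1 at 0 or a few counts, eno2, aldoab and gapdh, and with 1 to 3 libraries a group small changes may go uncalled.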
